A study of Mus musculus with 3 samples.

Results

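The fibrous and pericellular collagen genes described here are Col1a1, Col1a2, Col3a1, Col5a1, Col5a2, Col6a1, Col6a2, Col6a3, Col12a1 and Col14a1. They were chosen by name, as the rows of the count tables that carry these symbols, and are 10 of 32285 genes. All 10 were found. Their UMIs (unique molecular identifiers, one per captured transcript molecule) were counted in cells of the mouse mandibular condyle, the knob of the lower jaw that forms the jaw joint. The ages were embryonic day 16.5 (E16.5), the day of birth (P0) and 13 weeks (13w). Every group was wild type (WT, C57BL6), with no other allele or agent named in the labels, and tissue of 7 to 20 mice was pooled per age. Each pool became 1 library of live-sorted cells (Calcein positive, DAPI negative) after digestion with collagenase A and dispase 2. With 1 library per stage no test was possible. All intervals are 95% and cover counting error only, not animals or libraries.

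Collagens are trimers of alpha chains. Types I and III form the load-bearing fibrils of skin, tendon and bone, and type V sits inside such fibrils and sets their diameter. Type VI forms a beaded network around cells, which in cartilage makes up the pericellular matrix. Types XII and XIV lie on the surface of fibrils. The condyle differs from most joint cartilage in carrying a fibrous layer over its cartilage, so that cells making type I collagen lie beside cells making types II and IX.

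Filtering on a minimum of 500 genes and a maximum of 10% mitochondrial UMIs left 4562 (E16.5), 3999 (P0) and 8028 (13w) cells. Median depth was 17401.5, 17954 and 11010 UMIs. Col9a1, a chain of the cartilage collagen IX, divided the cells. Those with at least 3 Col9a1 UMIs per 10000 are called Col9a1-high and the rest Col9a1-low. Col9a1-high cells numbered 1014 (22.2%), 1746 (43.7%) and 1621 (20.2%), and gave 38.2%, 66.9% and 36.5% of all UMIs at E16.5, P0 and 13w. Their median depth was 40311.5, 36409.5 and 23612 UMIs against 14937, 11771 and 9547 in Col9a1-low cells. The 7 chondrocyte markers, Col9a1 among them, summed to 8282, 21718 and 21442 UMIs per 1000000 (CPM) over all cells, with none at 0, so cells with the labelled cartilage identity were present at every stage. In Col9a1-low cells those markers summed to 828, 1484 and 5726 CPM, highest at 13w. Libraries shared 8 to 14 kept cell barcodes pair by pair.

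Promoter sequence from RefSeq (GRCm38.p6) was at hand for 6 of the 10 genes. The 250 bases before the annotated start are printed for Col1a2 and Col3a1, whose transcripts differed in how they divided between Col9a1-high and Col9a1-low cells, and for the 3 type VI chains, of which Col6a3 parted from the other two at 13w. Col6a2 has a pair of annotated starts, of which the first is shown. Capitals mark matches, on either strand, to the TATA box (letters TATAAA), the CCAAT box (letters CCAAT), the GC box (letters GGGCGG), the CT element (letters CCCTCCC) and the AP-1 site (letters TGACTCA).
Col1a2, chr6:4505368-4505617, plus strand: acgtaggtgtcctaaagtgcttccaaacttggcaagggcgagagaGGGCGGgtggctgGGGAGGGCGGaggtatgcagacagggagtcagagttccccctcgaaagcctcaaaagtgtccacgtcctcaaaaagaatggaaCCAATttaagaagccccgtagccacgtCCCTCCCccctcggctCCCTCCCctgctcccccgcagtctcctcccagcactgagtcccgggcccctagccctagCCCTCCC
Col3a1, chr1:45311288-45311537, plus strand: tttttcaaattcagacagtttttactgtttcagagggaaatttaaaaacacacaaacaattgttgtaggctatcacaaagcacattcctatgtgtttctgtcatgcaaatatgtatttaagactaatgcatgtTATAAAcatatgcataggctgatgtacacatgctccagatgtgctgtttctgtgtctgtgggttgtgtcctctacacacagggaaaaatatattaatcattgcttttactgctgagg
Col6a1, chr10:76726045-76726294, minus strand: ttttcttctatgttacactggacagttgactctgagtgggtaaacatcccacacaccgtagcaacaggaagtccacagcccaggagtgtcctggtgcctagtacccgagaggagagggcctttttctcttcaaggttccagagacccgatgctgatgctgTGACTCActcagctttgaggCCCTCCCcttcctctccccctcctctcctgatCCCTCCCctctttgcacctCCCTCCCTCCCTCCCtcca
Col6a2, chr10:76623405-76623654, minus strand: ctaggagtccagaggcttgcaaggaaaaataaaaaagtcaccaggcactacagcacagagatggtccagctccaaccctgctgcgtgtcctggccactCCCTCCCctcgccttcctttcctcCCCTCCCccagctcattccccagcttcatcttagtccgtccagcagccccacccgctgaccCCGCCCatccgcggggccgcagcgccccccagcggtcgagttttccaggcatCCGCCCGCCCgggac
Col6a3, chr1:90843972-90844221, minus strand: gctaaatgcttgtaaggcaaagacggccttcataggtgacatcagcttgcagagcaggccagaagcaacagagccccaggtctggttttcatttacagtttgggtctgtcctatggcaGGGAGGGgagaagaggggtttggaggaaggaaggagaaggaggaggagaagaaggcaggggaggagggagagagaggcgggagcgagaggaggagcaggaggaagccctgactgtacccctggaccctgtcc
Of 32851 upstream windows of the same length, 12.4% held the TATA box letters, 33.8% the CCAAT box, 32.7% the GC box, 19.7% the CT element and 4.46% the AP-1 site. The Col3a1 window had 35.2% G and C, against a median of 52.4% over all windows, and held 1 TATA box and no other motif searched. The Col1a2 window had 62% G and C and held 1 CCAAT box, 2 GC boxes and 4 CT elements, of which 1 GC box overlaps 1 CT element. Col6a1 carried 5 CT elements, the last 3 of them overlapping, and 1 AP-1 site. Col6a2 held 2 CT elements and 3 GC boxes, the last 2 of them overlapping, and Col6a3 held 1 CT element. These matches describe letters only. In the same annotation no coding gene lay between Col6a1 and Col6a2 on chromosome 10, or between Col3a1 and Col5a2 on chromosome 1.

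Taken as a group, the collagens held a larger share of all transcripts at each later stage. Summed over the 10 genes they made up 0.713% of E16.5 UMIs (0.711 to 0.714), 1.39% of P0 UMIs (1.388 to 1.393) and 3.74% of 13w UMIs (3.741 to 3.748). The share was 0.529%, 1.26% and 3.79% in Col9a1-high cells and 0.826%, 1.66% and 3.72% in Col9a1-low cells. The middle cell held 0.682%, 1.26% and 3.06%, so the order of stages was the same for the median cell. A gene is called higher below when it reached 10 CPM in the higher group, differed at least 2-fold and had an interval that left out 1. By that rule 5 of the 10 genes were higher at P0 than at E16.5 over all cells and 1 was lower, where 5.31% of all 8261 genes measured were higher and 8.72% lower. From P0 to 13w 5 were higher and 0 lower, against 8.46% and 7.93% of 8098 genes. The median log2 ratio of all 10 genes was 1.04 at the first step and 1.199 at the second, against -0.13 for all genes measured at either step. The second value takes in Col14a1, which did not reach 10 CPM there. Both comparisons use the P0 library. With TMM scaling the split over all genes was 7.89% higher and 5.27% lower at the first step and 10.97% and 5.91% at the second, with 6 of the 10 genes higher at each. With every cell weighing the same, the 5 genes higher at P0 became 2, Col6a3 and Col12a1, as they did with every cell thinned to 3000 UMIs.

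Type I collagen, the main fibril of bone and fibrous tissue, was higher at each later stage in both kinds of cell. Col1a1, its alpha 1 chain, stood at 1412, 3674 and 10730 CPM in the E16.5, P0 and 13w libraries. Its partner chain Col1a2 stood at 1681, 3825 and 12862 CPM. Each stage was thus above the one before for both genes. The P0 level of Col1a1 was 2.60-fold that at E16.5 (2.59 to 2.62), and the 13w level was 2.92-fold that at P0 (2.91 to 2.93). For Col1a2 the ratios were 2.28 (2.26 to 2.29) and 3.36 (3.35 to 3.37). When each cell had the same weight, the first step came to a log2 ratio of 0.97 for Col1a1 and 0.83 for Col1a2, under the 2-fold limit.

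Within Col9a1-high cells, which carry the cartilage markers, Col1a1 went from 994 to 3559 to 12469 CPM and Col1a2 from 1283 to 3614 to 15225 CPM. In Col9a1-low cells Col1a1 stood at 1670, 3907 and 9730 CPM and Col1a2 at 1928, 4253 and 11504 CPM. Type I transcript was therefore higher in Col9a1-low cells at E16.5 and higher in Col9a1-high cells at 13w. At 13w, bone cell markers summed to 39258 CPM in Col9a1-high cells against 2675 at E16.5 and 2707 at P0, and Ibsp, which encodes bone sialoprotein, gave 82375 of 82635 CPM in those with Col10a1 and 26400 of 27026 CPM in the others. Their part in the 13w levels of type I collagen was not tested.

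Free RNA and doublets bear on such levels, so blood cells, which are not known to make type I collagen, were read the same way. Cells with blood markers held Col1a1 at 165 CPM in 176 cells (E16.5), 308 CPM in 19 cells (P0) and 2037 CPM in 413 cells (13w). Endothelial cells held 104, 854 and 336 CPM. The 13w blood cells also held bone markers at 3550 CPM, against 162 CPM in those of E16.5. In Col9a1-high cells Col1a1 was at 994 CPM or more at every stage, above the blood cells of the same library.

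**Figure D1:**
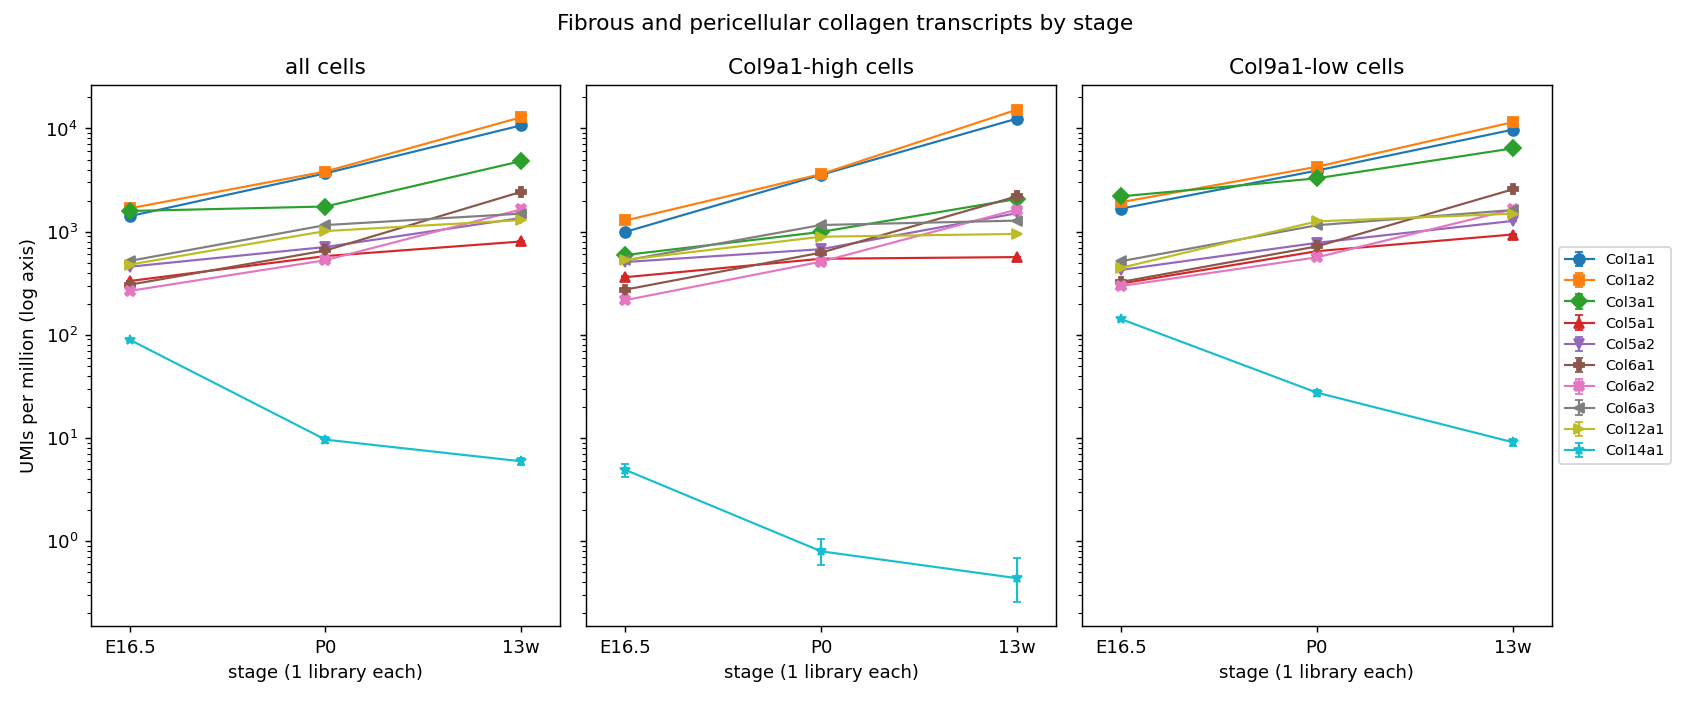
Level of each of the 10 collagen transcripts (vertical log axis, CPM) at E16.5, P0 and 13w (horizontal axis), in all cells, in Col9a1-high and in Col9a1-low cells, with 1 library per stage and bars for the 95% counting interval. Lines for 9 genes run upward from E16.5 to 13w in all 3 panels, and Col14a1 runs downward.

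Type III collagen, which co-assembles with type I in compliant tissue, was close in level at E16.5 and P0 and higher at 13w. Col3a1 stood at 1585, 1752 and 4830 CPM in the E16.5, P0 and 13w libraries over all cells. The first step was small, 1.11-fold (1.10 to 1.11), and the second was 2.76-fold (2.74 to 2.77). Within each kind of cell the first step was larger than over all cells. In Col9a1-high cells Col3a1 went from 593 to 994 CPM (log2 0.74), and in Col9a1-low cells from 2198 to 3287 CPM (log2 0.58), while the Col9a1-high cells, which hold less of it, gave 38.2% of UMIs at E16.5 and 66.9% at P0. At 13w the levels were 2073 CPM and 6414 CPM.

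The division of Col3a1 between the cells was the steadiest feature of this gene. Col9a1-low cells held 3.70-fold more than Col9a1-high cells (3.65 to 3.76) in the E16.5 library, 3.31-fold more (3.28 to 3.34) in the P0 and 3.09-fold more (3.07 to 3.12) in the 13w library. Col9a1-high cells gave only 14.3%, 38.0% and 15.7% of Col3a1 UMIs at the 3 stages. UMIs of Col3a1 per UMI of Col1a1 in Col9a1-high cells went from 0.597 at E16.5 to 0.279 at P0 and 0.166 at 13w. In Col9a1-low cells the same ratio was 1.32, 0.841 and 0.659. These ratios compare libraries for a fixed pair of genes and are not a ratio of protein chains.

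Type V collagen nucleates fibrils of type I, and its chains Col5a1 and Col5a2 parted in Col9a1-high cells at 13w. Col5a1 stood at 332, 579 and 802 CPM over all cells at E16.5, P0 and 13w, and Col5a2 at 457, 710 and 1357 CPM. Neither was called at either step over all cells. In Col9a1-high cells Col5a1 was 362, 546 and 566 CPM, with a 13w to P0 log2 ratio of 0.05 (0.03 to 0.08). Col5a2 in the same cells was 507, 676 and 1509 CPM, with a log2 ratio of 1.16 (1.14 to 1.18), which fell just under the 2-fold limit with every cell weighing the same (0.995). In Col9a1-low cells the same step came to 0.54 for Col5a1 and 0.71 for Col5a2. Thus UMIs of Col5a1 per UMI of Col5a2 in Col9a1-high cells were 0.713 (E16.5), 0.808 (P0) and 0.375 (13w), while in Col9a1-low cells they were 0.737, 0.830 and 0.738. Over the other settings tried the 13w value in Col9a1-high cells ran from 0.289 to 0.451, below the lowest P0 value of 0.748.

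The parting was largest in the cells that also carried Col10a1, the collagen of hypertrophic chondrocytes. At 13w those 266 cells held Col5a1 at 241 CPM and Col5a2 at 1257 CPM. The other 1329 Col9a1-high cells held 661 and 1585 CPM. At P0 the Col10a1-carrying cells held 405 and 612 CPM. Blood cells of the 13w library held 197 CPM (185 to 210) and 272 CPM (258 to 286), so Col5a1 in the Col10a1-carrying cells lay little above their level, and the part of free RNA in the parting was not tested.

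Type VI collagen, the pericellular network, was higher at each later stage, and its 3 chains did not move alike. Col6a1 stood at 306, 657 and 2433 CPM in the E16.5, P0 and 13w libraries. Col6a2 stood at 266, 528 and 1641 CPM, and Col6a3, the long chain with many von Willebrand domains, at 520, 1157 and 1495 CPM. From E16.5 to P0 the 3 genes shared a similar step, with log2 ratios of 1.10 (1.08 to 1.12), 0.99 (0.97 to 1.01) and 1.15 (1.14 to 1.17). The Col6a2 value lies just under the 2-fold limit and passed it with TMM scaling (1.17) and median-of-ratios scaling (1.16). From P0 to 13w Col6a1 was higher by a log2 ratio of 1.89 (1.88 to 1.90) and Col6a2 by 1.63 (1.62 to 1.65), whereas Col6a3 came to 0.37 (0.36 to 0.38). With every cell weighing the same, the first step of Col6a1 came to 0.94, under the limit.

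The same parting stood in both kinds of cell. UMIs of Col6a1 per UMI of Col6a3 were 0.588 (0.580 to 0.596) for E16.5, 0.567 (0.562 to 0.573) for P0 and 1.63 (1.62 to 1.64) for 13w. In Col9a1-high cells the ratio was 0.522, 0.540 and 1.72, and in Col9a1-low cells it was 0.630, 0.624 and 1.59. Over other settings it stayed between 0.510 and 0.695 in the earlier libraries and between 1.48 and 1.74 at 13w. Col6a1 per Col6a2 moved less, from 1.15 to 1.24 to 1.48. Chromosome 10 carries the Col6a1 and Col6a2 genes side by side, and Col6a3 lies on chromosome 1.

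**Figure D2:**
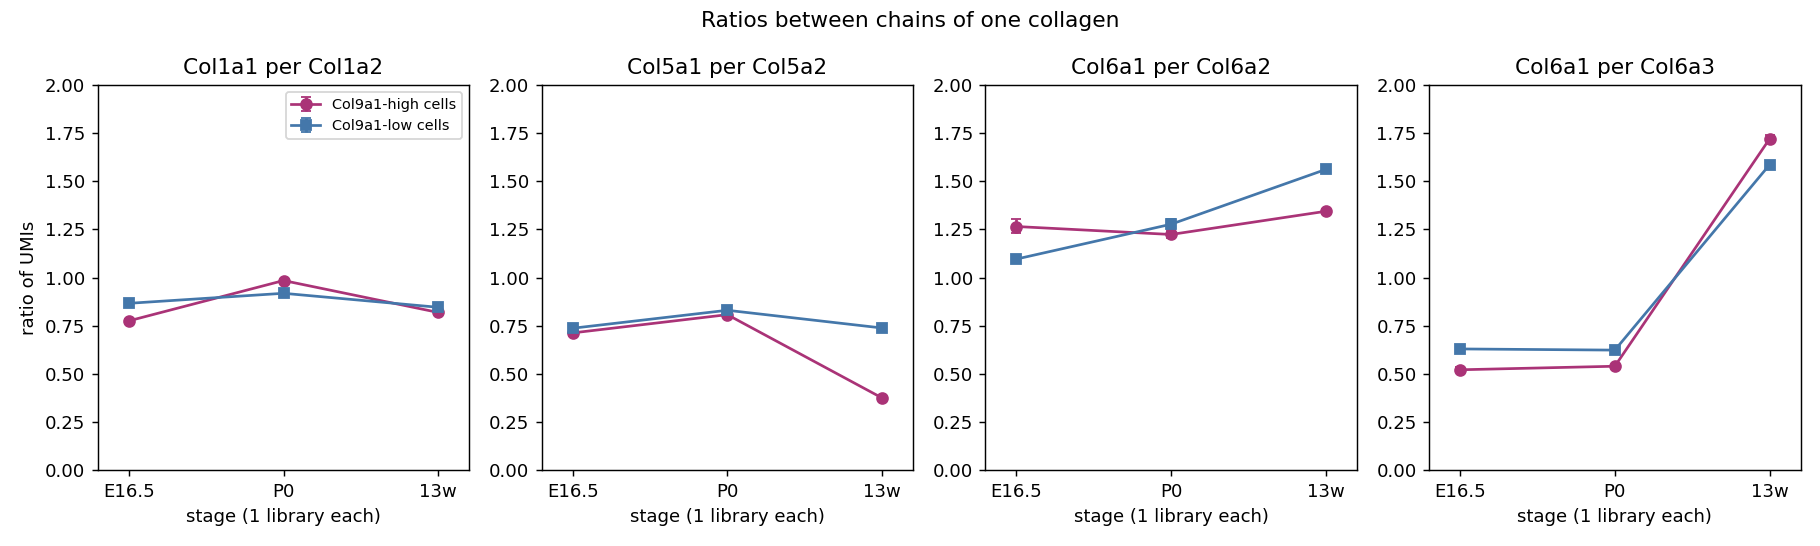
Ratio of UMIs between chains of type I, V and VI collagen (vertical axis) at E16.5, P0 and 13w (horizontal axis) in Col9a1-high and Col9a1-low cells, with 1 library per stage and bars for the 95% counting interval. Col6a1 per Col6a3 lies at 1.59 or above at 13w and at 0.630 or below earlier in both kinds of cell, and Col5a1 per Col5a2 at 13w is 0.375 in Col9a1-high and 0.738 in Col9a1-low cells.

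Of the collagens on the fibril surface, Col12a1 and Col14a1 went in opposite directions. Col12a1 encodes type XII collagen, a fibril-associated collagen of dense connective tissue. It stood at 479, 1013 and 1294 CPM, 2.12-fold higher at P0 than at E16.5 (2.09 to 2.14) and 1.28-fold higher at 13w than at P0 (1.27 to 1.29). The first step was larger in Col9a1-low cells (446 to 1257 CPM, log2 1.49) than in Col9a1-high cells (532 to 893 CPM, log2 0.75). The difference between these steps was not tested.

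Col14a1 encodes type XIV collagen, a related fibril-associated chain of tendon and skin. Over all cells it stood at 89.5 CPM at E16.5 (8998 UMIs), 9.62 CPM at P0 (904 UMIs) and 5.93 CPM at 13w (671 UMIs). It was 9.31-fold lower at P0 than at E16.5 (8.69 to 9.98), the only one of the 10 genes called lower over all cells. The 13w level was 1.62-fold below that of P0 (1.47 to 1.79), with both libraries under the 10 CPM minimum. Col9a1-low cells held 142, 27.5 and 9.09 CPM, a log2 ratio of -2.37 (-2.47 to -2.27) and then -1.60 (-1.75 to -1.45).

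Col14a1 was scarce in Col9a1-high cells. These held 188 of 8998 (E16.5), 50 of 904 (P0) and 18 of 671 (13w) Col14a1 UMIs. The level in Col9a1-low cells was 29.0-fold (25.1 to 33.7), 34.6-fold (26.0 to 47.0) and 20.8-fold (13.1 to 35.4) that in Col9a1-high cells. These are log2 ratios of 4.86, 5.11 and 4.38, which came to 3.75, 4.37 and 3.23 with every cell weighing the same. With every cell thinned to 3000 UMIs they came to 4.69, 4.63 and 3.97 where the cells kept their division, and to 2.60, 2.83 and 1.82 where they were divided again on the thinned Col9a1 counts, so that 1 Col9a1 UMI made a cell Col9a1-high. When each cell was thinned to 3000 UMIs, a Col14a1 UMI was found in 20.6% of Col9a1-low cells of E16.5 (19.2 to 21.98), in 6.03% of those of P0 (5.08 to 7.11) and in 2.78% of those of 13w (2.39 to 3.23). Before thinning the shares were 28.3%, 9.85% and 4.67%, and the median depth of blood cells was 9064.5, 9574 and 7672 UMIs. Thinning left out 147, 49 and 264 Col9a1-low cells with fewer UMIs. After the same thinning, blood cells held a Col14a1 UMI in 0 of 147 cells at E16.5, which allows a share of up to 2.04% (3 counts of the cells), in 0 of 17 at P0, which allows up to 17.6%, and in 5 of 352 at 13w (1.42%, 0.463 to 3.28). At P0 and 13w the share in Col9a1-low cells lies within what the blood cells allow and cannot be told from theirs, while at E16.5 it lies above. At P0 the 17 blood cells allow too wide a range for the shares to be separated. By level at 13w, blood cells held 4.72 CPM (3.02 to 7.02), against 9.09 CPM (8.40 to 9.81) in Col9a1-low cells. In Col9a1-high cells the thinned share was 2.02%, 0.180% and 0.192% (20 of 991, 3 of 1671 and 3 of 1564 cells).

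Col9a1-low and Col9a1-high cells of the same library were then compared directly. At E16.5, 2 of the 10 genes were called higher in Col9a1-low cells and 0 lower, where 15.2% of all genes measured were higher and 9.29% lower. At P0 the counts were again 2 and 0, against 14.4% and 10.5%, and the genes were Col3a1 and Col14a1 at both stages. At 13w only Col3a1 was called, with 11% of all genes higher and 3.79% lower, because Col14a1 was below 10 CPM. The shares of members called are close to those of all genes. With TMM scaling the shares over all genes became 10.1% and 14.9% at E16.5, 10.3% and 15.7% at P0 and 5.87% and 6.61% at 13w, and the members called were unchanged in number. Median log2 ratios of all 10 members were 0.35, 0.22 and 0.28, against 0.18, 0.10 and 0.31 over all genes measured. The 13w value takes in Col14a1, although it was below 10 CPM. The remaining 8 genes differed by less than 2-fold between the cells at every stage.

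Type I collagen changed sides between E16.5 and 13w. The log2 ratio of Col9a1-low over Col9a1-high cells was 0.75 for Col1a1 and 0.59 for Col1a2 at E16.5, and -0.36 and -0.40 at 13w. At P0 the ratios were 0.13 and 0.24, which turn negative with TMM or median-of-ratios scaling (-0.14 and -0.04 with TMM). Col5a1 and Col12a1 went the other way, from -0.21 and -0.26 at E16.5 to 0.73 and 0.65 at 13w. The type VI genes lay between -0.02 and 0.45 at all stages, and the sign of several depended on the scaling. Graded by Col9a1 level, Col3a1 at E16.5 was 2787 CPM in cells with no Col9a1 UMI, 1475 CPM with up to 3 per 10000, 797 CPM with 3 to 10, 468 CPM with 10 to 30 and 584 CPM in the 41 cells with 30 or more.

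**Figure D3:**
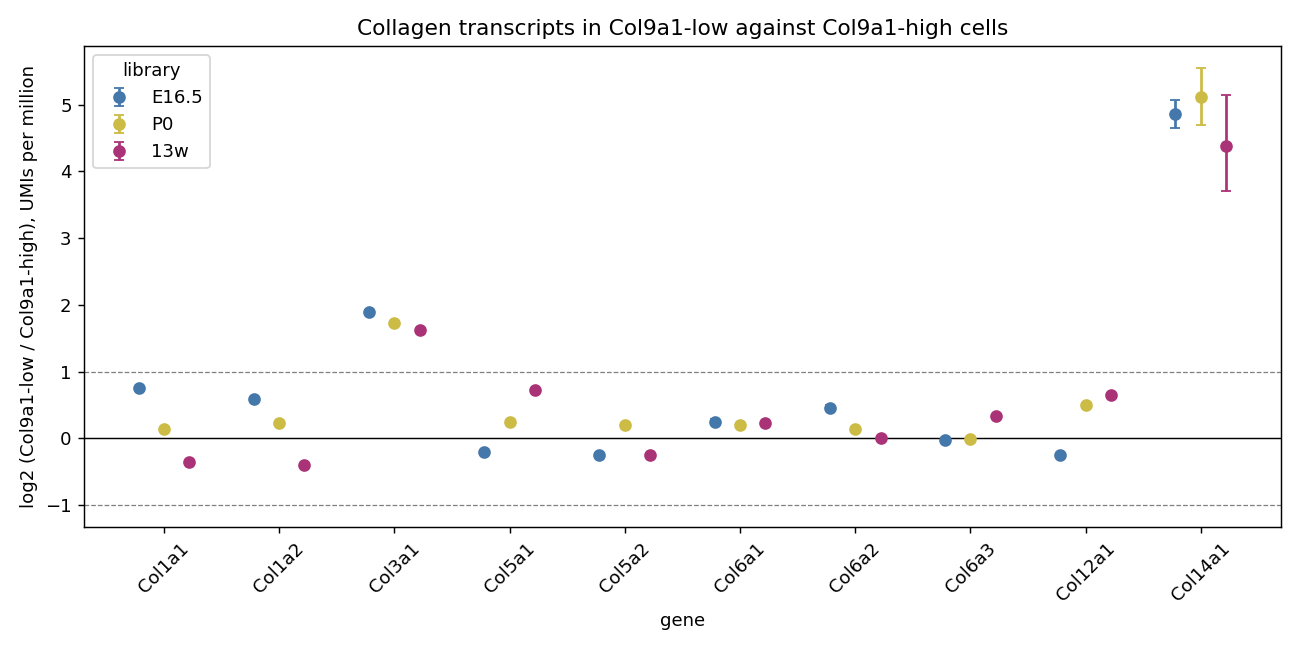
Log2 ratio of each collagen transcript in Col9a1-low over Col9a1-high cells (vertical axis) for the 10 genes (horizontal axis) at E16.5, P0 and 13w, with bars for the 95% counting interval and dashed lines at a 2-fold difference. Col3a1 and Col14a1 lie above the upper line in every library, and Col1a1 and Col1a2 pass from above 0 at E16.5 to below 0 at 13w.

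Within the comparisons restricted to a kind of cell, the counts resembled those over all cells. In Col9a1-high cells 5 of the 10 genes were higher at P0 than at E16.5 and 0 lower (4.79% and 5.08% of all genes), namely Col1a1, Col1a2 and the 3 type VI genes. From P0 to 13w 6 were higher and 0 lower (6.97% and 12%), namely Col1a1, Col1a2, Col3a1, Col5a2, Col6a1 and Col6a2. Col3a1 came under the limit once putative doublets were taken out (0.99), with the Col9a1 limit at 10 per 10000 (0.99) and with cells thinned after division (0.95). Col5a2 did so with every cell weighing the same (0.995) and with cells thinned and divided again (0.94). In Col9a1-low cells 6 were higher at P0 and 1 lower (5.44% and 7.27%), and the 6 became 2 when every cell weighed the same. From P0 to 13w 4 were higher in these cells and 1 lower (9.74% and 7.75%), the 4 being Col1a1, Col1a2, Col6a1 and Col6a2. Col3a1, at 0.96, passed the limit under 7 of the 14 other settings, TMM scaling (1.10) among them. With TMM scaling the shares over all genes became 10.6% higher and 6.55% lower for the second step in Col9a1-high cells, and 7.64% and 4.85% and then 12.2% and 5.78% for the steps in Col9a1-low cells. Median log2 ratios of all 10 members were 0.94 and 1.11 in Col9a1-high cells, against -0.08 and -0.30 over all genes measured. Both member values take in Col14a1, which was below 10 CPM in those cells. In Col9a1-low cells they were 1.09 and 0.84 (10 genes), against -0.15 and -0.05.

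Cells were further divided by marker transcripts, each set named by the marker that defines it. Bone-marker cells carried Bglap, Bglap2, Ibsp or Ifitm5, and Dpt cells carried dermatopontin, a matrix protein of fibroblasts. Cycling cells carried Mki67 or Top2a. A set needed 3 or more UMIs per 10000 summed over its markers, and cells were assigned in the order bone markers, Prg4, Tnmd, Dpt and cycling. The remainder lay below that limit for all of them. At E16.5, type I transcript was higher in the bone-marker cells (156 cells, Col1a1 at 3837 CPM) and the Dpt cells (135 cells, 4179 CPM) than in cycling cells (1345 CPM) or the remainder (1693 CPM). A set of 44 cells with the tendon gene Tnmd held 5617 CPM. At P0 the 114 bone-marker cells held 7112 CPM, and the 1598 remaining Col9a1-low cells 3871 CPM.

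At 13w the order was different. Col1a1 was at 13739 CPM in Col9a1-high cells without Col10a1, at 12132 CPM in cycling Col9a1-low cells, at 10715 CPM in the remainder and at 10526 CPM in bone-marker Col9a1-low cells. Among the Col9a1-high and Col9a1-low sets it was lowest in the 81 cells with Prg4, the joint lubricant, at 2723 CPM. The bone-marker set was 34.6% of 13w cells, against 3.42% at E16.5 and 2.85% at P0, and its bone markers summed to 14636 CPM. Ibsp alone gave 14006 CPM of that sum, and Bglap with Bglap2 gave 482 CPM. Chondrocyte markers summed to 8896 CPM in the same cells. Ibsp was higher in Col9a1-high cells of that library, at 82375 CPM in those with Col10a1 and 26400 CPM in the others. Blood cells of that library held the bone markers at 3550 CPM. Dpt cells held 215 CPM, a level bounded in advance, since cells reaching the bone-marker limit were taken out before them. The part of free RNA in the bone-marker set was not tested.

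Col3a1 was at its highest in the 1771 Dpt cells of 13w, at 9142 CPM (9100 to 9183), followed by 6026 CPM (5997 to 6055) in the bone-marker cells. The 13w remainder and cycling cells came next, at 5515 and 5188 CPM. At E16.5 the Dpt cells also led among sets of at least 50 cells, at 5012 CPM. Its lowest level outside the sets of other cell types was in E16.5 Col9a1-high cells with Col10a1, at 378 CPM.

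Col6a1 was at its highest in 13w cycling cells (3591 CPM), the remainder (3284 CPM) and Dpt cells (3077 CPM), and intervals of these neighbours did not overlap. At P0 its highest level was in the 37 Dpt cells, at 1684 CPM, against 719 CPM over all Col9a1-low cells. Prg4 cells of 13w held 1218 CPM.

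Among sets of at least 50 cells, Col14a1 was at its highest in a small set, while most of its E16.5 UMIs lay outside that set. The 135 Dpt cells of E16.5 held 955 CPM (908 to 1003), and the 44 Tnmd cells held 744 CPM. Of the 8998 Col14a1 UMIs of E16.5, Dpt cells gave 1588, the 2056 cells of the remainder 5037 and the 863 cycling cells 1551. The 5 cells with Prg4 at that stage held 1087 CPM, from too few cells to rank. Among sets of at least 50 cells the E16.5 remainder came next at 155 CPM (151 to 159), with the 13w Prg4 cells at 153 CPM (125 to 184), and the intervals of those neighbours overlap. Dpt cells held 269 CPM at P0 and 4.32 CPM at 13w. Thus the 13w Dpt cells, where Col3a1 was at its peak, held almost no Col14a1.

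**Figure D4:**
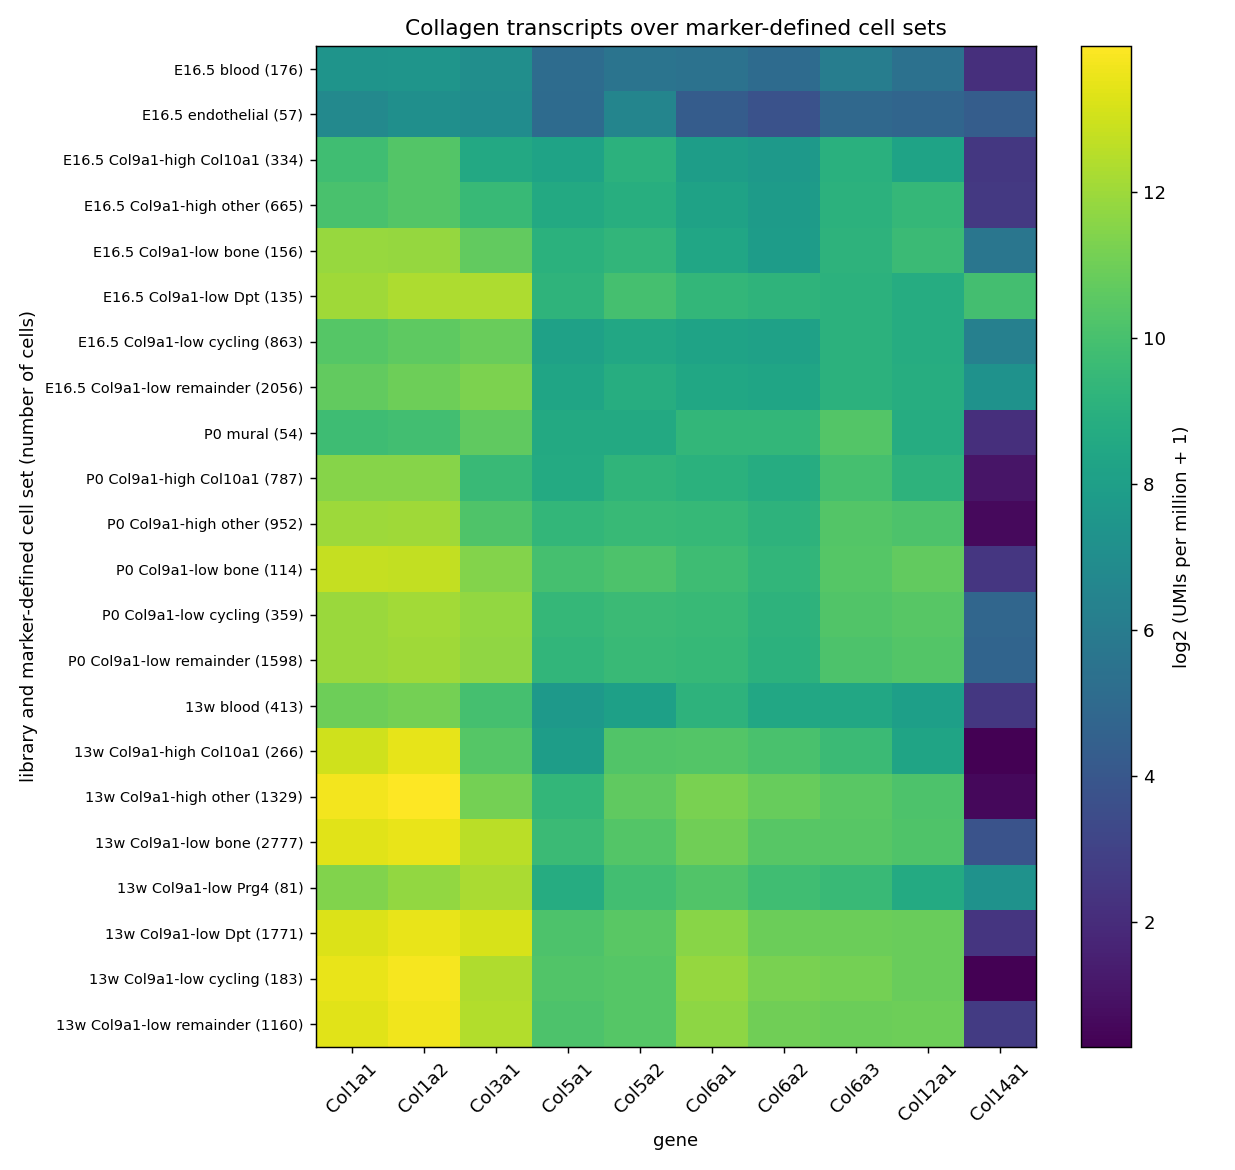
Level of each collagen transcript (columns) in every library and marker-defined cell set of at least 50 cells (rows, with the number of cells), as log2 of CPM plus 1. Col1a1 and Col1a2 are high across the 13w Col9a1-high and Col9a1-low sets other than the Prg4 cells, and Col14a1 is bright in the E16.5 Dpt cells, at 955 CPM, and darker elsewhere.

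Cell by cell, the chains of type I collagen were the most alike of all pairs at every stage in both kinds of cell. On log2 of UMIs per 10000 plus 1, Pearson r between Col1a1 and Col1a2 was 0.89 (E16.5), 0.89 (P0) and 0.91 (13w) in Col9a1-low cells (3548, 2253 and 6407 cells). It was 0.74, 0.86 and 0.83 in Col9a1-high cells. Col6a1 and Col6a2 gave 0.63, 0.64 and 0.81 in Col9a1-low cells, and Col6a1 with Col6a3 gave 0.46, 0.53 and 0.77. The type VI chains were thus more alike across cells at 13w, the stage at which the level of Col6a3 had parted from those of Col6a1 and Col6a2. Type VI counts per cell were also higher there, and their part in r was not tested. Cells share a library and differ in depth and lineage, so these values describe the data and carry no test.

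Col14a1 changed its relation to the fibril genes with stage. In Col9a1-low cells its r with Col1a2 was 0.54 (E16.5), 0.01 (P0) and -0.15 (13w), and with Col5a2 it was 0.52, 0.15 and -0.06. Few cells held a Col14a1 UMI at the later stages, which bounds what r can show. Col12a1 and Col14a1 gave 0.10, -0.09 and -0.22.

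**Figure D5:**
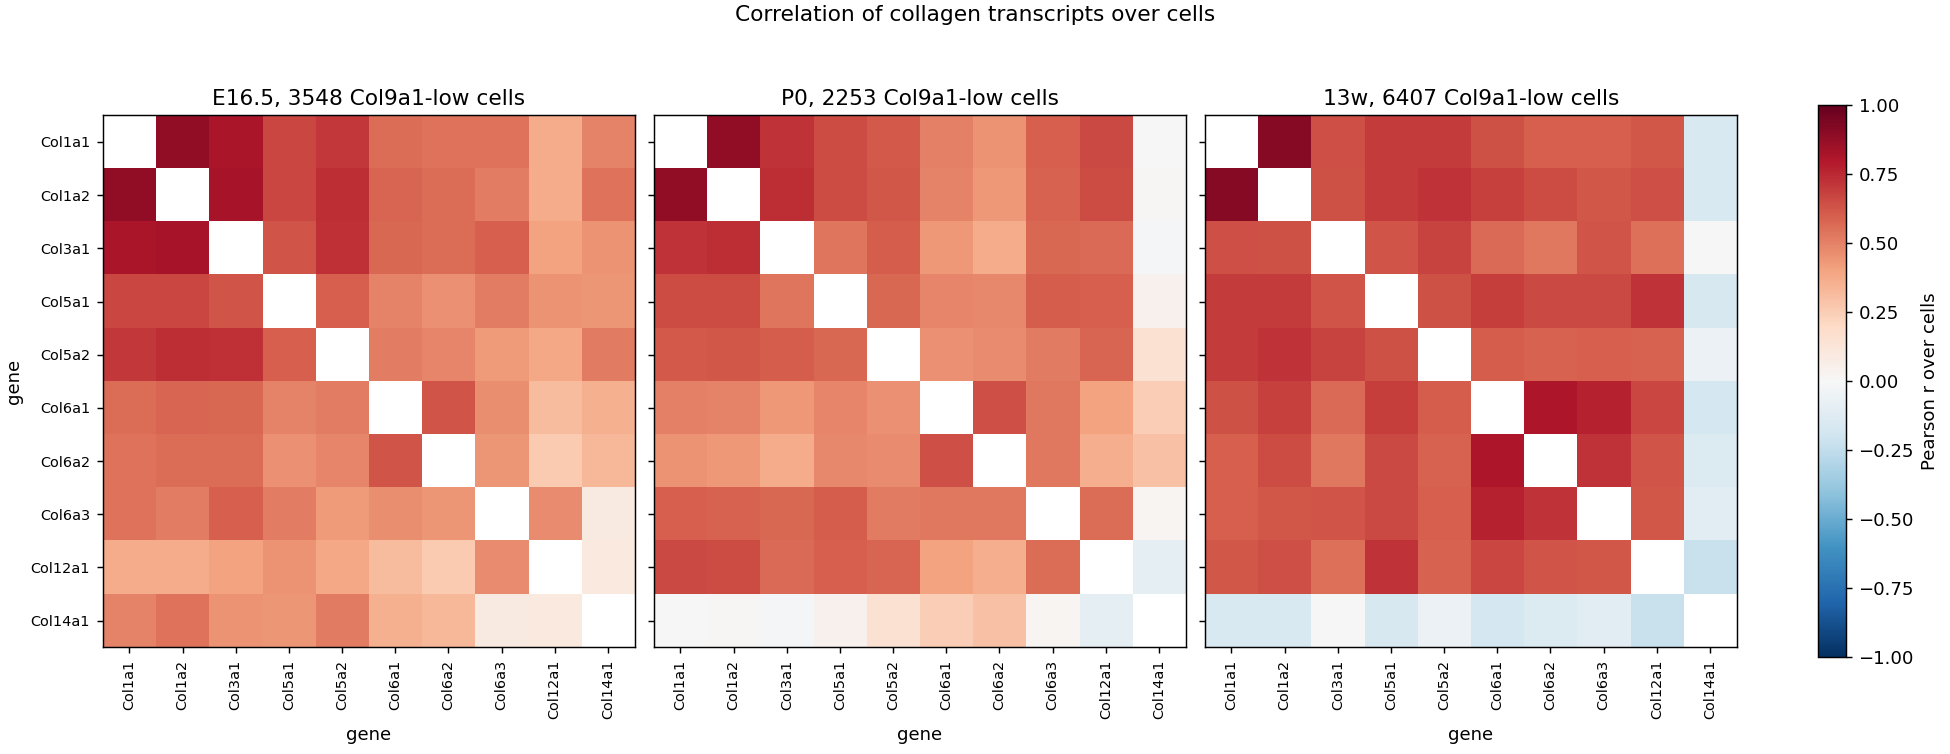
Pearson r over Col9a1-low cells between each pair of collagen transcripts (both axes), on log2 of UMIs per 10000 plus 1, for E16.5, P0 and 13w, with the diagonal left blank. Col1a1 with Col1a2 is the darkest square in each panel, at 0.89 to 0.91, and the Col14a1 row goes from red at E16.5 to pale or blue at 13w.

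Spread between cells was wide. Col1a1 in Col9a1-low cells of 13w ran from 8.08 UMIs per 10000 at the 10th percentile to a median of 63.6 and 184 at the 90th. In Col9a1-high cells the same 3 values were 25.6, 98.2 and 232. At E16.5 the Col9a1-low values were 3.31, 14.6 and 46.5, so the 13w median lay above the E16.5 90th percentile. For Col3a1 in Col9a1-low cells the medians were 19.7, 29.1 and 50.9 at the 3 stages, and for Col6a1 they were 2.83, 5.85 and 20.1.

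Over 22 sums of library and cell set, the genes most like each member were sought by Pearson r of log2 CPM plus 1 among 5785 genes. Col1a1 was closest to its partner Col1a2 (0.996), and outside the 10 genes to Aebp1, a collagen-binding protein (0.93), Thbs3 (0.93) and Col16a1 (0.93). Col3a1 was closest to Dkk3 (0.97) and Postn, the matrix protein periostin (0.95). Col6a1 was closest to Col6a2 (0.995) and then Aebp1 (0.96), and Col5a1 to Col12a1 (0.98). For Col14a1 the closest were 6330403K07Rik (0.96), the R-spondin receptor gene Lgr5 (0.95) and Smoc1 (0.94), and its highest r with any of the other 9 genes was 0.24. The sums share libraries, so these values have no test.

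The genes that fold and modify collagen had lower median ratios than the collagens at both steps. Of 22 genes of folding and modification, 3 were higher at P0 than at E16.5 and 0 lower over all cells, and at 13w against P0 1 was higher and 1 lower. Over all genes measured, 5.31% were higher and 8.72% lower at the first step, and 8.46% and 7.93% at the second. The median log2 ratio of the list was 0.49 and -0.23. It was 0.42 and -0.31 in Col9a1-high cells, and 0.44 and 0.28 in Col9a1-low cells. From P0 to 13w, 1 of 22 was higher and 2 lower in Col9a1-high cells (6.97% and 12% of all genes). In Col9a1-low cells 4 of 22 were higher and 0 lower (9.74% and 7.75%). Of the 3 genes higher at P0 over all cells, Sparc was called in Col9a1-low cells, and P3h2 and Fkbp10 in neither kind. Sparc, a collagen-binding matrix protein, stood at 2596, 6094 and 45636 CPM and was called at both steps. The prolyl isomerase Fkbp10 was at 164, 341 and 185 CPM and the prolyl hydroxylase P3h1 at 125, 227 and 89.2 CPM, with log2 ratios of -0.88 and -1.35 from P0 to 13w. Both levels were thus lower at 13w than at P0, while type I transcript was higher. Within Col9a1-high cells the ratios were -1.01 and -1.13, and within Col9a1-low cells -0.29 and -0.70. P3h2, another prolyl hydroxylase, was at 57.1, 117 and 88.97 CPM.

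In Col9a1-low cells against Col9a1-high cells, 11 of 22 folding genes were lower at E16.5 and 1 higher. At P0 11 of 21 were lower, and at 13w 3 of 22. Over all genes 9.29%, 10.5% and 3.79% were lower at these stages, or 14.9%, 15.7% and 6.61% with TMM scaling. Among them P3h1 was lower by log2 ratios of -1.42, -1.45 and -1.02.

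Of the genes for propeptide cleavage and cross-linking, 4 of 9 measured were higher at P0 than at E16.5 and 0 lower, at a median log2 ratio of 0.99 against 1.04 for the 10 collagens. From P0 to 13w 2 of 10 were higher and 1 lower, at a median of 0.16. The shares of all genes called higher and lower were 5.31% and 8.72%, and then 8.46% and 7.93%. At this second step 4 of 9 were higher and 2 lower in Col9a1-low cells (9.74% and 7.75% of all genes), at a median of 0.94. In Col9a1-high cells 1 of 9 was higher and 1 lower (6.97% and 12%), at a median of 0.14. Loxl4, called lower over all cells, was called higher in Col9a1-low cells and was not called in Col9a1-high cells. Pcolce, an enhancer of the removal of the C-propeptide, stood at 132, 377 and 515 CPM, and its relative Pcolce2 at 82.8, 165 and 393 CPM. The lysyl oxidase-like genes Loxl3 (24.0, 100.2 and 98.7 CPM) and Loxl4 (21.8, 97.8 and 44.97 CPM) were higher at P0 than at E16.5. Adamts2, which removes the N-propeptide of types I to III, was at 4.83, 4.64 and 23.3 CPM.

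Over all cells, proteins that bind fibrils had the highest list median from P0 to 13w. Of 13 measured, 5 were higher at P0 and 2 lower, and 9 were higher at 13w than at P0 with 0 lower, at median log2 ratios of 0.74 and 1.70. These counts stand beside 5.31% and 8.72% of all genes at the first step, and 8.46% and 7.93% at the second. Fmod, a small proteoglycan that controls fibril growth, stood at 40.7, 373 and 3149 CPM. Comp, a thrombospondin-family protein that bridges fibrils, stood at 241, 991 and 5000 CPM, and the fibril-coating Dcn at 140, 234 and 2535 CPM. Fn1, on which collagen networks assemble, was at 267, 1039 and 3725 CPM. Dpt was at 16.2, 6.096 and 215 CPM in the E16.5, P0 and 13w libraries, and the second step, a log2 ratio of 5.14, was the largest of the list.

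Among collagen receptors, 2 of 10 were higher at P0 and 0 lower, and at 13w 1 of 9 was higher and 1 lower, where 5.31% and 8.72% and then 8.46% and 7.93% of all genes were so called. The 13w counts are near those shares. The integrin gene Itga10, a cartilage collagen receptor, was at 24.5, 61.7 and 66.3 CPM. Itga1 was at 31.8, 35.3 and 5.74 CPM. Antxr1, a receptor for type I and VI collagen, was at 68.2, 55.0 and 153 CPM, and Antxr2, its relative, at 32.1, 50.1 and 28.8 CPM. Cspg4, a type VI-binding proteoglycan, was at 195, 474 and 264 CPM. Over all cells Antxr1 was the receptor gene called higher from P0 to 13w. It was called in Col9a1-high cells (25.4 to 60.0 CPM) and not in Col9a1-low cells (115 to 206 CPM), where Antxr2 (9.68 to 28.3 CPM) and Itga10 (24.6 to 68.6 CPM) were. In Col9a1-high cells Itga1, Cspg4 and Antxr2 were called lower, 3 of 10 against 12% of all genes, with 1 higher (6.97%). In Col9a1-low cells 0 of 9 were lower (7.75%) and 2 higher (9.74%). From E16.5 to P0, 0 of 10 were called in Col9a1-high cells. Itga1, Itga10 and Itga11 were higher in Col9a1-low cells, 3 of 9 against 5.44% of all genes.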

How the data were processed

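Values are UMI counts per gene and cell barcode, deposited as 1 filtered matrix per library. Per the file headers they come from Cell Ranger 6.1.2, and per the submitters' processing notes from GRCm39. Other settings are not given in the sources used here, nor is strand. Barcodes with under 500 genes or over 10% mitochondrial UMIs were dropped. This took out 16.4%, 17.6% and 9.79% of barcodes at E16.5, P0 and 13w. Before filtering the libraries held 103827875, 98486931 and 115836876 UMIs. Counts were summed over cells, divided by the total and compared as ratios with exact conditional binomial intervals. Levels have exact Poisson intervals and shares exact Clopper-Pearson intervals, all at 95%, except that a share of 0 is given with the limit that 3 counts would set. No test was run, since cells are not replicates. The computation was tested on simulated counts.

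Marker sets were filled in order: blood, endothelial, mural, muscle, glia and nerve, and epithelial cells needed 5 UMIs per 10000 of their summed markers, and the later sets 3. Scrublet called 5, 1 and 0 doublets automatically, which is too few to have worked, so none were removed in the values reported. As an alternative the cells with the highest scores were removed, at an assumed 0.8% per 1000 cells. These were 181, 146 and 572 cells, being 7.30%, 6.76% and 10.98% of Col9a1-high and 3.02%, 1.24% and 6.15% of Col9a1-low cells. Because it rests on the same scores, this setting cannot show whether doublets matter. All 10 members are named, with the 3 genes of each list that had the largest absolute log2 ratio at each step, the 2 highest and 2 lowest of the other collagens with at least 100 CPM, and the 3 genes most like each member. Lists of genes called are counted over measured genes. The genes, lists and cell rules were chosen with earlier results of these data known. Alternatives were scaling by TMM (edgeR 4.0.16) and by median of ratios (DESeq2 1.42.0), other filters, equal weight per cell, thinning to 3000 UMIs, removal of doublets and of other cell types, and other Col9a1 limits. Software was Python 3.11.15, scanpy 1.11.5, scipy 1.17.1 and R 4.3.3.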

Additional observations from a re-analysis of the deposited data

Results flagged for a closer look

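For 5 of the collagen genes the log2 ratio of Col9a1-low to Col9a1-high cells was above 0 in 1 library and below 0 in another, each with a counting interval that left out 0. The differences between stages were not tested, since each stage has 1 library. Col1a1 gave 0.75 (E16.5), 0.13 (P0) and -0.36 (13w), and Col1a2 gave 0.59, 0.24 and -0.40. Col5a1 gave -0.21, 0.24 and 0.73, and Col12a1 gave -0.26, 0.49 and 0.65. Col5a2 gave -0.25, 0.20 and -0.25. At P0 the sign depended on scaling: TMM gave -0.14 for Col1a1, -0.04 for Col1a2, -0.03 for Col5a1 and -0.07 for Col5a2. Equal weight per cell, and thinning with the division kept, each gave -0.07 for Col1a1 at P0. At E16.5, Col5a2 came to 0.12 when cells were thinned and divided again, and Col12a1 to 0.18 with the Col9a1 limit at 10 per 10000. The bone marker sum was 2675, 2707 and 39258 CPM in Col9a1-high cells of E16.5, P0 and 13w, and its part in these ratios was not tested.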

How the results depend on the processing

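No paired analysis was possible because each stage had 1 library. No called log2 ratio changed sign under any setting tried. The summed share of the 10 genes kept its order over the stages. With every cell weighing the same it was 0.918% (E16.5), 1.47% (P0) and 3.35% (13w), and after thinning 0.908%, 1.46% and 3.39%. With at most 5% mitochondrial UMIs it was 0.675%, 1.34% and 3.735%, and without other cell types 0.739%, 1.41% and 3.90%. Removing the cells with the highest doublet scores gave 0.710% at E16.5, and a minimum of 1000 genes gave 3.75% at 13w. Thinning divided the cells again on thinned Col9a1 counts, and a setting that kept their division was added. Equal weight and thinning each left 2 genes higher at P0 than at E16.5, over all cells and over Col9a1-low cells, and thinning with the division kept left 2 in Col9a1-low cells. In Col9a1-high cells 1 gene, Col14a1, became lower at P0 with equal weight, thinning, no CPM minimum or a Col9a1 limit of 1 per 10000. At 13w, Col9a1-low cells had 2 genes higher than Col9a1-high cells with the total taken without genes above 1%, equal weight, thinning (with either division) or no CPM minimum. A minimum of 50 CPM left 0 genes lower at 13w than at P0 in Col9a1-low cells, and 1 gene higher in Col9a1-low than Col9a1-high cells at P0. The cause of these changes was not tested, beyond the minimum itself for the changes in Col14a1. TMM scaling moved the median of all genes by 0.20 and 0.18 (log2) at the steps over all cells, and by -0.34, -0.30 and -0.40 between Col9a1-low and Col9a1-high cells of E16.5, P0 and 13w. Under it 80 of 90 ratios kept their sign and 85 kept their call. The Col9a1 limits for single ratios, thinning with the division kept and the settings for ratios between chains were chosen after seeing the data. Depth limits Col14a1 in Col9a1-high cells most, with 18 UMIs at 13w.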

Other observations

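Over all cells, Col9a1 and Col10a1 were called lower at 13w than at P0, and Col2a1 was not called. Col2a1, which encodes the main cartilage fibril, stood at 4147 CPM at E16.5, 12848 CPM at P0 and 17378 CPM at 13w. Col9a1 stood at 567, 1323 and 479 CPM, and Col10a1 at 618, 1762 and 633 CPM. Within each kind of cell Col2a1 was called higher at 13w than at P0, from 19050 to 42076 CPM in Col9a1-high cells and from 290 to 3189 CPM in Col9a1-low cells. Col10a1 was lower in the former (2606 to 1075 CPM) and higher in the latter (54.6 to 379 CPM). Of the 34 other collagen genes, 18 were measured from E16.5 to P0 over all cells, of which 11 were higher and 1 lower at P0. At the second step 19 were measured, of which 6 were higher and 4 lower at 13w. Of all genes measured, 5.31% were higher and 8.72% lower at the first step, and 8.46% and 7.93% at the second. At the first step 4 of 16 were higher and 1 lower in Col9a1-high cells (4.79% and 5.08% of all genes). In Col9a1-low cells 9 of 19 were higher and 1 lower (5.44% and 7.27%). Of those higher at P0 over all cells, Col2a1, Col9a1, Col9a2, Col9a3, Col10a1, Col11a1, Col11a2 and Col27a1 were not called in Col9a1-high cells. Col2a1, Col10a1 and Col11a1 were called higher in Col9a1-low cells. Col9a1-high cells were 22.2% of cells at E16.5 and 43.7% at P0. Col16a1, among the genes most like Col1a1, stood at 79.6, 136 and 342 CPM. The basement membrane genes Col4a1 and Col4a2 stood at 67.4, 105 and 74.2 CPM and at 40.5, 61.97 and 110.2 CPM, each below the 2-fold limit at both steps over all cells. Within each kind of cell both were called higher at P0 than at E16.5: Col4a1 went from 5.99 to 14.4 CPM in Col9a1-high and from 105 to 289 CPM in Col9a1-low cells, and Col4a2 from 4.95 to 13.7 CPM and from 62.6 to 160 CPM. At 13w Col4a2 was called higher than at P0 in Col9a1-high cells, at 75.3 CPM, and Col4a1 lower in Col9a1-low cells, at 102 CPM. Col5a3, a further type V chain, was called higher at both steps over all cells.

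Prg4 cells of 13w, 81 in number, paired a low Col1a1 level (2723 CPM) with a Col3a1 level of 4954 CPM and a Col14a1 level of 153 CPM (125 to 184), against 9.09 CPM in all Col9a1-low cells of that library.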
